A study of Sus scrofa with 11 samples.

Results

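The genes described here code for the enzymes and chaperones that modify and fold procollagen inside the endoplasmic reticulum before it is secreted. They were taken by name from the table of gene values, and all 10 were found among its 30376 genes: the lysyl hydroxylases PLOD1, PLOD2 and PLOD3, the prolyl 4-hydroxylase subunits P4HA1, P4HA2, P4HA3 and P4HB, the 3-hydroxylation complex component CRTAP, the collagen chaperone SERPINH1 and the galactosyltransferase COLGALT1. Values came from full-thickness skin wounds of Yucatan minipigs, excised on day 10 after wounding and measured by bulk sequencing of polyA RNA with 1 library per wound. The 7 diabetic wounds, called D1 to D7 by their replicate number, came from 1 female minipig in which diabetes was induced at 6 months of age with streptozotocin, a toxin of the insulin-producing cells, and which was wounded 60 days later, a week after supplemental insulin was stopped. The 4 non-diabetic wounds, called N1 to N4, came from 1 untreated female minipig of the same breed whose age is not given in the sources used here. All wounds of a group therefore came from the same animal. Every p-value measures the spread between wounds of 1 animal, and diabetes cannot be told apart from any other difference between the 2 minipigs.

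Procollagen chains are hydroxylated while they are being made. Prolyl 4-hydroxylase, a tetramer of catalytic alpha subunits (P4HA1, P4HA2 or P4HA3) and the beta subunit P4HB, which is also the general disulfide isomerase of the endoplasmic reticulum, forms the 4-hydroxyproline that keeps the triple helix stable at body temperature. Lysyl hydroxylases form the hydroxylysine from which stable cross-links and collagen sugars are made: PLOD1 acts mainly on the helix, PLOD2 on the telopeptides at its ends, and PLOD3 also transfers sugars. These hydroxylases need 2-oxoglutarate, iron, ascorbate and oxygen, and P4HA1 and PLOD2 are among the well known targets of the hypoxia-inducible factors (HIF). SERPINH1, also called HSP47, binds the folded helix, CRTAP works with P3H1 and PPIB on 3-hydroxylation of proline, and COLGALT1 adds galactose to hydroxylysine.

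Because some members, P4HA1 and PLOD2 among them, are known HIF targets, the 250 bases upstream of the annotated gene start were read for all members. The sequence was that of the Sscrofa11.1 genome (RefSeq). The other members were not sorted by whether they are HIF targets. Whether HIF control sets these 2 genes apart from the other members was not tested. Windows of 3 members are shown, in the direction of transcription: PLOD2 (chr13:86513168-86513417, minus strand) and P4HA1 (chr14:75919122-75919371, minus strand), the 2 members that were lower in diabetic wounds, and PLOD3 (chr3:8919526-8919775, minus strand), which holds the most matches and was not called. Capitals mark the HIF core, ACGTG or GCGTG, searched on both strands, so that its complement CACGT or CACGC is also marked.
PLOD2: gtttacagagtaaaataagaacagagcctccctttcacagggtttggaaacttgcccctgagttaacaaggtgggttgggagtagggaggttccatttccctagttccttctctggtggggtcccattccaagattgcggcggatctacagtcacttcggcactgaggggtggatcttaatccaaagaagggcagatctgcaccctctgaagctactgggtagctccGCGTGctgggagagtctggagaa
P4HA1: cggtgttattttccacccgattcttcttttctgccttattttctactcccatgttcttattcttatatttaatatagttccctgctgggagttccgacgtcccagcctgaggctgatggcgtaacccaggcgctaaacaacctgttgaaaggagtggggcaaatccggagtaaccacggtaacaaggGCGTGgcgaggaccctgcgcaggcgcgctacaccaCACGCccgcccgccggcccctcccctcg
PLOD3: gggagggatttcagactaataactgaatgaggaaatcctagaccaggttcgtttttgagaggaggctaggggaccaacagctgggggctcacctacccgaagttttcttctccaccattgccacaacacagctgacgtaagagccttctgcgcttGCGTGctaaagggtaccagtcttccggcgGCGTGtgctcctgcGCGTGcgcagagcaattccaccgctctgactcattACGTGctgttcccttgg
The PLOD2 window held 1 match, 23 bases upstream of the start, the P4HA1 window held 2, at 63 and 28 bases, and the PLOD3 window held 4, at 95, 66, 52 and 17 bases. P4HA2 held 2 matches, at 220 and 34 bases, and the other 6 members held none. The core is short, and 42.3% of 20664 promoter windows of this length held it, against 4 of the 10 members. A GC box (GGGCGG) was present in 4 members and 44.4% of all windows, a CCAAT box (CCAAT) in 3 members and 32.0%, and a TATA box (TATAAA) in none of the members and 10.4% of all windows, each searched on both strands. A match is a description of the letters in these windows and not a bound site. The PLOD2 gene itself lies at chr13:86402673-86513167 and P4HA1 at chr14:75827207-75919121. The GC content of the windows was 52.0% for PLOD2 and 55.6% for P4HA1, against a median of 57.2% over all windows.

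Between 28314785 and 40168372 reads per diabetic wound and between 32961018 and 36872400 reads per non-diabetic wound fell on genes, and the members were covered by 2185 (PLOD2) to 75878 (SERPINH1) reads per wound, so their values are not limited by depth. Levels are given in FPKM, reads scaled by the authors to gene length and library size, and differences as log2 fold changes of FPKM + 0.5 between diabetic and non-diabetic wounds, tested with limma over 13956 genes. A call required an adjusted p below 0.05 together with a log2 fold change beyond 0.5 in either direction. Libraries D3, D4 and N1 differed from the others in markers of other tissues. The summed level of 11 keratinocyte markers was 44.0 FPKM in D4 and 293 FPKM in N1, against 1603 to 6709 FPKM in the other 9 wounds, and these 2 wounds stood apart on the first principal component, which held 44.5% of the variance. Skeletal muscle genes summed to 1525 FPKM in D3 and to 5.76 to 10.5 FPKM in the other 10 wounds, and MYH1, MYH2 and ACTA1 were at or near 0 outside D3. The fibroblast list, whose defining markers COL1A1 and COL3A1 were among the most abundant genes, was present in every wound. In bulk RNA, fewer cells of a type and less RNA per cell cannot be told apart.

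PLOD2 and P4HA1 were lower in diabetic wounds, and no other member was called in either direction (limma). The background of such calls was 231 of 13956 genes lower (1.66%) and 188 higher (1.35%). Both groups were fully separated for these 2 members, and every diabetic wound was lower than every non-diabetic wound in 2.96% of all tested genes and higher in 2.69%. The median log2 fold change was 0.06 over the 10 members and 0.01 over all genes tested, and 4 of the 10 members had a negative value. With the unadjusted p in place of the adjusted one, 995 genes and 3 members would have been called, the third being P4HA3 in the higher direction.

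**Figure D1:**
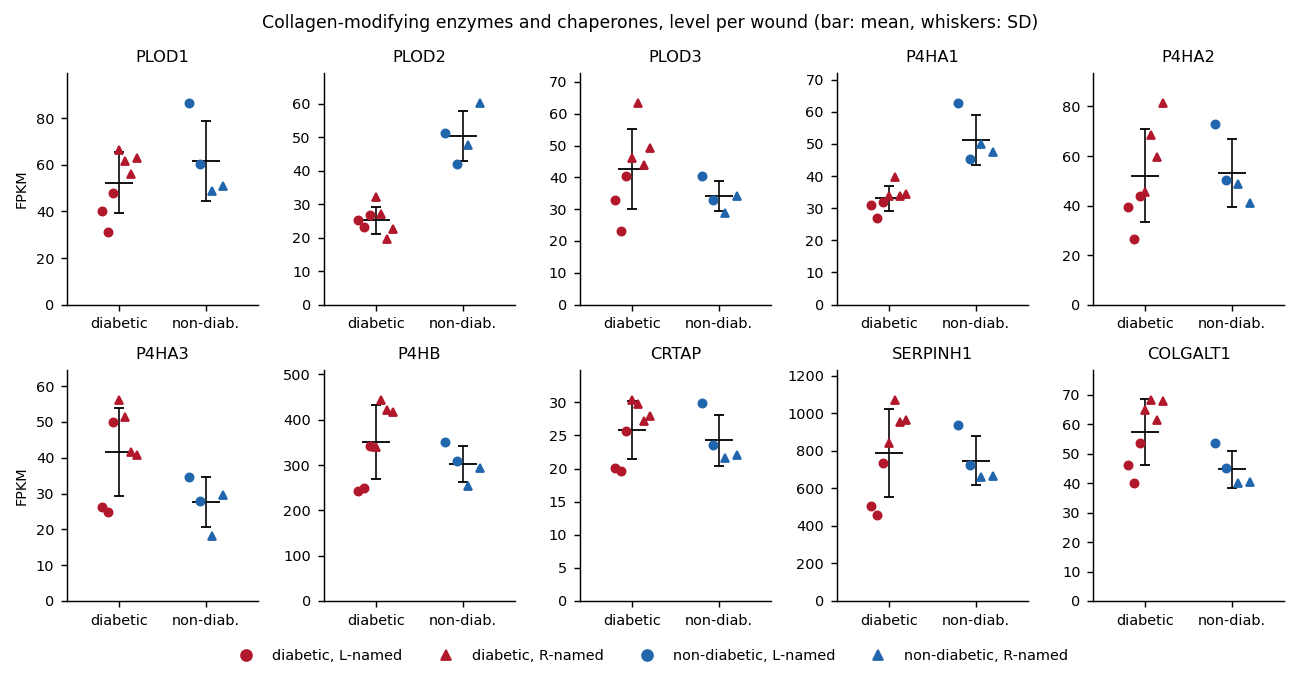
Level of each member in FPKM (vertical axis, from 0) in 7 diabetic wounds (red) and 4 non-diabetic wounds (blue), 1 point per wound, with circles for L-named and triangles for R-named libraries, and the mean with SD as bar and whiskers. Only the PLOD2 and P4HA1 panels show no overlap between the groups, with diabetic PLOD2 at 19.6 to 32.2 FPKM against 42.1 to 60.1 FPKM.

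Among the lysyl hydroxylases, PLOD2 showed the largest change of all members. Its level was 25.3, 23.3, 26.7, 32.2, 26.9, 19.6 and 22.6 FPKM in D1 to D7 and 51.2, 42.1, 47.8 and 60.1 FPKM in N1 to N4. The highest diabetic wound, D4, lay below the lowest non-diabetic wound, N2. The means were 25.2 ± 4.02 FPKM (SD, n = 7) and 50.3 ± 7.53 FPKM (SD, n = 4), a log2 fold change of -0.98 (SE 0.13, 95% interval -1.28 to -0.69, limma adjusted p = 0.00243). By p-value, PLOD2 ranked 66 among the 13956 genes, and the two-sided exact permutation test over the 330 ways to choose 4 of 11 wounds gave p = 0.00303, the smallest it can give. The table gives 1 value per gene for PLOD2, whose annotation has 3 mRNA start positions, so its splice forms were not separated.

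PLOD1 and PLOD3 were not called. PLOD1, the enzyme of the helix, was at 40.1, 31.2, 47.9, 66.5, 61.8, 56.2 and 63.1 FPKM in D1 to D7 and at 86.4, 60.5, 48.9 and 50.9 FPKM in N1 to N4. The groups overlapped, with the lowest values in D1 and D2 and the highest in N1, and the log2 fold change was -0.24 (95% interval -0.73 to 0.25, adjusted p = 0.625). PLOD3 was at 32.9, 23.1, 40.5, 46.0, 63.3, 43.9 and 49.2 FPKM in D1 to D7 and at 40.4, 32.9, 28.9 and 34.0 FPKM in N1 to N4. D3 to D7 lay above the highest non-diabetic wound, N1, and D1 and D2 did not. The log2 fold change was 0.27 (95% interval -0.22 to 0.76, adjusted p = 0.570).

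P4HA1, the main catalytic alpha subunit of prolyl 4-hydroxylase in most cells, was at 31.0, 26.9, 31.9, 33.8, 39.6, 33.9 and 34.4 FPKM in D1 to D7 and at 62.6, 45.3, 49.9 and 47.4 FPKM in N1 to N4. The highest diabetic wound was D5, which still lay below the lowest non-diabetic wound, N2. The means were 33.0 ± 3.87 FPKM (SD, n = 7) and 51.3 ± 7.77 FPKM (SD, n = 4), a log2 fold change of -0.62 (SE 0.11, 95% interval -0.88 to -0.37, limma adjusted p = 0.0139, exact permutation p = 0.00303). The call was lost without N1, the highest of the 4, where the log2 fold change was -0.53 and the adjusted p 0.0510, and without both N1 and D4 the adjusted p was 0.0650. PLOD2 stayed called without these 2 wounds (-1.03, adjusted p = 0.00824).

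The other 2 alpha subunits were not called. P4HA2 was at 39.4, 26.4, 43.8, 45.5, 68.7, 59.8 and 81.2 FPKM in D1 to D7 and at 72.8, 50.2, 48.7 and 40.9 FPKM in N1 to N4, and both the lowest and the highest of the 11 values were diabetic (log2 fold change -0.08, 95% interval -0.68 to 0.52, adjusted p = 0.915). P4HA3 was at 26.2, 24.9, 49.9, 56.2, 51.5, 41.5 and 40.8 FPKM in D1 to D7 and at 34.7, 27.9, 18.2 and 29.7 FPKM in N1 to N4. D3 to D7 lay above all non-diabetic wounds and D1 and D2 lay within them. Its log2 fold change was 0.56 (SE 0.25, 95% interval 0.01 to 1.11, adjusted p = 0.261, exact permutation p = 0.0758). It was called higher (0.74, adjusted p = 0.0381) when limma weighted each library by the scatter of its values around the group means, which is not a measure of RNA quality. P4HB, the shared beta subunit, ranged from 243 to 444 FPKM in diabetic wounds (median 343) and was at 351, 309, 254 and 294 FPKM in N1 to N4, with a log2 fold change of 0.19 (95% interval -0.21 to 0.59, adjusted p = 0.640).

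The chaperones and the galactosyltransferase overlapped between the groups. SERPINH1 was the most abundant member, at 506, 457, 736, 842, 1073, 953 and 965 FPKM in D1 to D7 and 938, 725, 659 and 668 FPKM in N1 to N4 (log2 fold change 0.03, 95% interval -0.49 to 0.56, adjusted p = 0.961). D1 and D2 were the lowest of all 11 wounds in this gene and D5 the highest. CRTAP had the lowest mean of the members in the non-diabetic wounds, although P4HA3 was lower in N3. It was at 19.6 to 30.4 FPKM in the diabetic wounds (median 27.1) and 29.9, 23.5, 21.6 and 22.0 FPKM in N1 to N4 (log2 fold change 0.08, 95% interval -0.23 to 0.40, adjusted p = 0.817). COLGALT1 was at 46.1, 39.9, 53.7, 64.9, 68.3, 61.5 and 67.8 FPKM in D1 to D7 and at 53.5, 45.1, 40.1 and 40.3 FPKM in N1 to N4. D3 to D7 lay above all non-diabetic wounds and D1 and D2 did not, with a log2 fold change of 0.34 (SE 0.16, 95% interval -0.01 to 0.69, adjusted p = 0.279, exact permutation p = 0.0727). For all 8 members that were not called, the intervals of the fold change still allow changes in either direction or, for P4HA3, an increase.

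**Figure D2:**
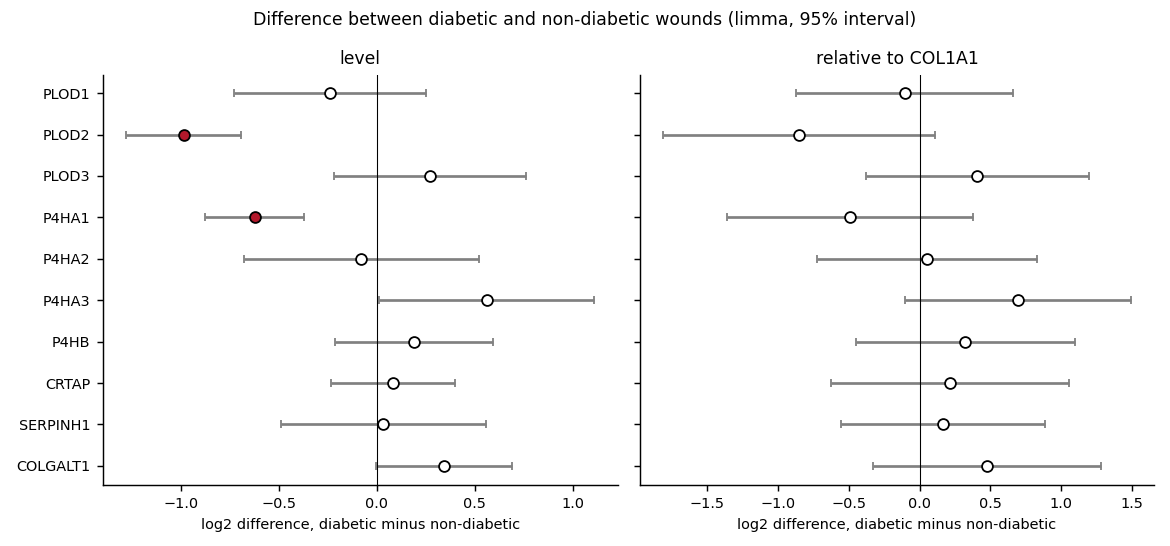
Log2 difference between diabetic and non-diabetic wounds (horizontal axis, diabetic minus non-diabetic) for each member, as level (left) and after division by COL1A1 of the same wound (right), with 95% intervals from limma. Filled points passed the thresholds: PLOD2 at -0.98 and P4HA1 at -0.62 in level, and no member relative to COL1A1, where the intervals are wider.

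Some ratios and shares within the families differed between the groups. They are described without a test, since they are built from the levels above. How often other gene pairs separate the groups in this way was not computed. PLOD2 amounted to 0.425 to 1.01 times PLOD3 in the diabetic wounds and 1.27 to 1.77 times PLOD3 in the non-diabetic wounds, without overlap. P4HA1 amounted to 0.601 to 1.18 times P4HA3 against 1.60 to 2.75 times, and to 0.0804 to 0.127 times P4HB against 0.147 to 0.197 times, again without overlap. Other ratios overlapped between the groups. PLOD2 was 0.348 to 0.747 times PLOD1 in diabetic and 0.593 to 1.18 times in non-diabetic wounds. P4HA1 was 0.423 to 1.02 times P4HA2 against 0.860 to 1.16 times. The ratios of PLOD2 to P4HA1 and of SERPINH1 to P4HB overlapped too. PLOD2 and P4HA1 were already separated in level, whereas P4HA3 and PLOD3 were not. The shares below have P4HA1 or PLOD2 in their sum, so a share of P4HA3 or PLOD3 also depends on these 2 genes. As a share of the 3 summed alpha subunits, P4HA1 made up 22.0% to 34.4% in diabetic and 36.7% to 42.7% in non-diabetic wounds, P4HA3 made up 26.1% to 41.5% and 15.6% to 25.1%, and P4HA2 overlapped. PLOD3 made up 29.7% to 41.6% of the summed lysyl hydroxylases in diabetic and 22.7% to 24.3% in non-diabetic wounds, while the PLOD2 share overlapped narrowly, at 16.3% to 30.0% against 28.8% to 41.4%. The summed level of a family did not separate the groups. The 3 alpha subunits together ranged from 78.1 to 160 FPKM in diabetic wounds against 117 to 170 FPKM in non-diabetic wounds, and the 3 lysyl hydroxylases from 77.5 to 152 and from 126 to 178 FPKM.

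**Figure D3:**
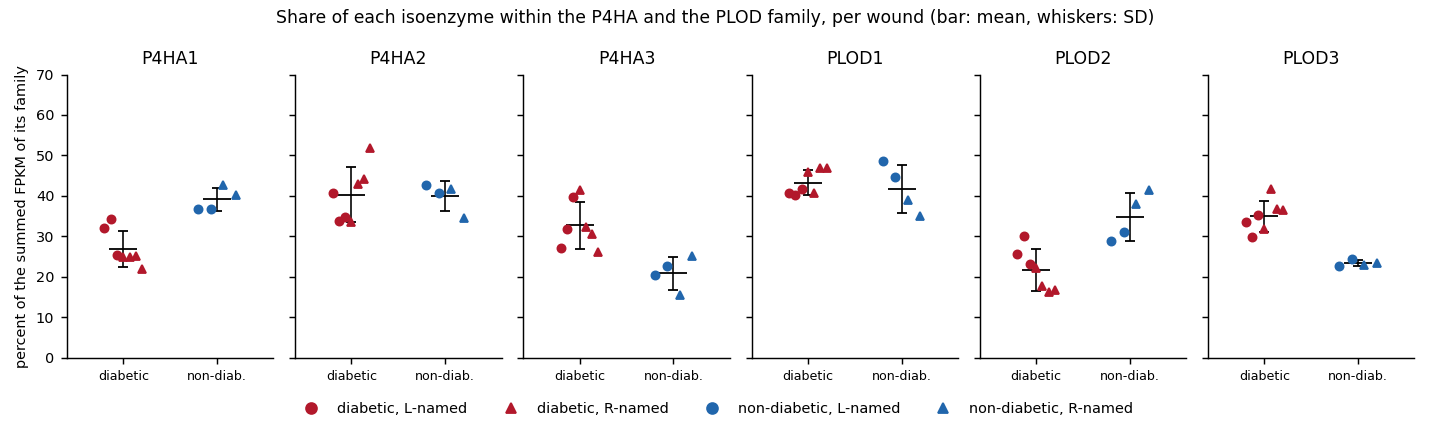
Share of each isoenzyme in the summed FPKM of its family, in percent (vertical axis), for the P4HA alpha subunits and the PLOD lysyl hydroxylases in 7 diabetic (red) and 4 non-diabetic (blue) wounds, with mean and SD. The groups do not overlap for P4HA1, P4HA3 and PLOD3, whose diabetic share was 29.7% to 41.6% against 22.7% to 24.3%.

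The main substrate of these enzymes in skin is type I collagen, and the level of its alpha 1 chain varied more between wounds than that of any member. COL1A1 was at 5747, 4615, 11506, 17294, 19026, 16597 and 16700 FPKM in D1 to D7, a 4.12-fold range, and at 20109, 13914, 9549 and 9738 FPKM in N1 to N4 (log2 fold change -0.13, SE 0.42, adjusted p = 0.906). COL1A2 (-0.31, adjusted p = 0.653) and COL3A1 (-0.26, adjusted p = 0.674) were not called either. The 2 diabetic wounds lowest in COL1A1, D1 and D2, were also the 2 lowest diabetic wounds for 9 of the 10 members, PLOD2 being the exception with its lowest values in D6 and D7. This pattern was also seen in COL1A2 and COL3A1 and in 20.9% of all tested genes, a smaller share than among the members. Its size differed: the mean of D1 and D2, as a percentage of the mean of the other 5 diabetic wounds, was 31.9% for COL1A1, 52.7% for SERPINH1, 83.3% for P4HA1 and 94.8% for PLOD2. From lowest to highest diabetic wound, P4HA1 ranged 1.47-fold, CRTAP 1.55-fold and PLOD2 1.65-fold, and PLOD3 and P4HA2 ranged 2.74-fold and 3.08-fold.

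Relative to COL1A1 of the same wound no member was called. Per 1000 FPKM of COL1A1, PLOD2 was at 4.40, 5.05, 2.32, 1.86, 1.41, 1.18 and 1.35 FPKM in D1 to D7 and at 2.55, 3.03, 5.00 and 6.17 FPKM in N1 to N4. D1 and D2 lay above N1 and N2, D2 also lay just above N3, none reached N4, and the other 5 diabetic wounds lay below all non-diabetic wounds. The log2 difference was -0.85 (SE 0.46, 95% interval -1.81 to 0.11, adjusted p = 0.999961 in limma, exact permutation p = 0.112). P4HA1 per 1000 FPKM of COL1A1 was at 5.39, 5.82, 2.77, 1.95, 2.08, 2.04 and 2.06 FPKM in D1 to D7 and at 3.11, 3.26, 5.22 and 4.87 FPKM in N1 to N4, with the same wounds high and low (-0.49, SE 0.42, exact permutation p = 0.242). The smallest exact permutation p among the members was that of P4HA3, at 2.44 to 5.39 FPKM per 1000 in diabetic and 1.72 to 3.05 in non-diabetic wounds (log2 difference 0.69, SE 0.38, limma adjusted p = 0.999961, unadjusted exact permutation p = 0.0333). On this scale 5 of 13955 genes were called lower (0.0358%) and 26 higher (0.186%). By unadjusted p and the same fold change, 241 genes and 0 members would have been called. With library weights limma called PLOD2 (-1.96) and P4HA1 (-1.22) lower on this scale, in a fit that called 9826 genes lower. Without weights the median log2 difference of all genes was 0.15, and that of the members 0.19. The SE of the members was 0.35 to 0.46 on this scale, against 0.11 to 0.27 in level.

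With COL1A1 as a covariate in place of the ratio, an alternative added after the data were seen that estimates the relation to COL1A1 for each gene, PLOD2 (-0.98, adjusted p = 0.00235) and P4HA1 (-0.60, adjusted p = 0.00154) were lower and P4HA3 was higher (0.63, adjusted p = 0.0188). COLGALT1 passed the p threshold (adjusted p = 0.00150) at a log2 difference of 0.39, under the fold change threshold. This fit called 392 genes higher and 468 lower. Against COL1A2 or COL3A1 as the denominator no member was called. The smallest exact permutation p, 0.00303, was that of COLGALT1 relative to either chain, at log2 differences of 0.65 and 0.61, with limma adjusted p-values of 0.422 and 0.287.

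**Figure D4:**
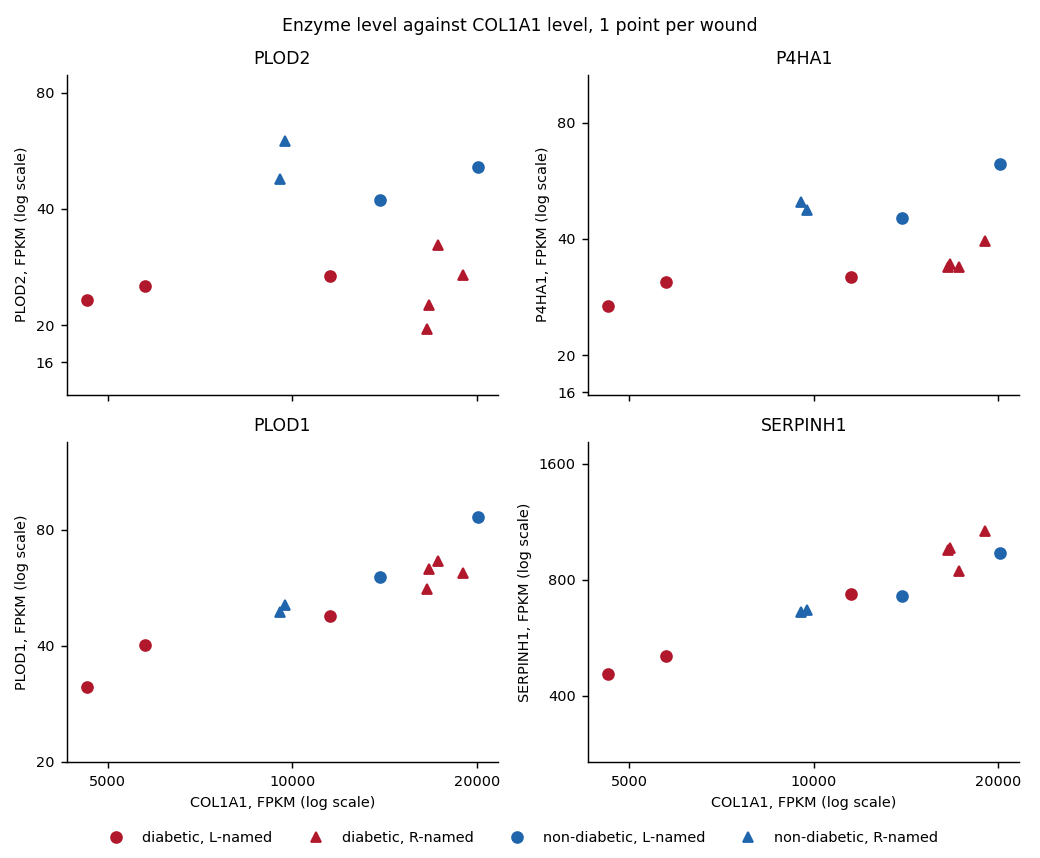
Level of PLOD2, P4HA1, PLOD1 and SERPINH1 (vertical axes, FPKM, log scale) against COL1A1 (horizontal axis, FPKM, log scale), 1 point per wound. Every diabetic wound (red) lies below every non-diabetic wound (blue) on the vertical axis for PLOD2 and P4HA1. For SERPINH1 both groups lie along 1 band. For PLOD1 the levels overlap, but the ratio to COL1A1 differs between wounds. Per 1000 FPKM of COL1A1, D3 to D7 are at 3.25 to 4.16 FPKM of PLOD1, below all non-diabetic wounds (4.30 to 5.23 FPKM). D1 and D2, at 6.97 and 6.76 FPKM, are above them. D1 and D2, at 5747 and 4615 FPKM of COL1A1, have no non-diabetic wound at a like COL1A1 level, the lowest being 9549 FPKM.

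The library names begin with L for D1 to D3, N1 and N2 and with R for the other 6 wounds. The endings of the names are the same within a group and differ between the groups, so whatever they mark cannot be told apart from the group. The sources used here do not say what the letter or the ending means. Within the R-named wounds (4 diabetic, 2 non-diabetic) PLOD2 was at a log2 fold change of -1.09 (adjusted p = 0.0323) and P4HA1 at -0.46 (adjusted p = 0.0377, under the fold change threshold). Within the L-named wounds (3 diabetic, 2 non-diabetic) the values were -0.88 (adjusted p = 0.133) and -0.83 (adjusted p = 0.170), and neither passed, in a fit where 3 genes were called higher and 4 lower. Both genes were fully separated over all wounds, so their separation and negative sign with either letter were fixed in advance and add no support. The calls of other members depended on the letter. P4HA3 (1.00), COLGALT1 (0.70), P4HB (0.56) and SERPINH1 (0.53) were called higher in the R-named diabetic wounds, in a fit with 726 genes higher and 626 lower, and the L-named values of these 4 genes were 0.04, -0.09, -0.26 and -0.57, none of them called. COL1A1 was at 0.85 (adjusted p = 0.0182) within the R-named and -1.31 (adjusted p = 0.273) within the L-named wounds. The difference between the letters was tested as an interaction over all genes, of which 901 of 13956 passed an adjusted p under 0.05. It passed for PLOD1 (R minus L 1.18, SE 0.26, adjusted p = 0.0418), COLGALT1 (0.78, SE 0.18, adjusted p = 0.0427), COL1A1 (2.16, SE 0.47, adjusted p = 0.0418), COL1A2 (1.53, adjusted p = 0.0470) and COL3A1 (1.40, adjusted p = 0.0486). It did not pass for PLOD2 (-0.21, SE 0.28, adjusted p = 0.623) or P4HA1 (0.37, SE 0.20, adjusted p = 0.235). For SERPINH1 (1.10, adjusted p = 0.0507), CRTAP (0.68, adjusted p = 0.0611), P4HB (0.82, adjusted p = 0.0633), P4HA2 (1.23, adjusted p = 0.0733), PLOD3 (0.88, adjusted p = 0.103) and P4HA3 (0.96, adjusted p = 0.161) it did not pass either, so a difference between the letters is not shown for them. Relative to COL1A1, PLOD2 was at -1.94, P4HA1 at -1.31 and PLOD1 at -0.54 within the R-named wounds, all called lower in a fit where 9606 of 13206 genes were, and at 0.44, 0.49 and 0.44 within the L-named wounds, none called.

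**Figure D5:**
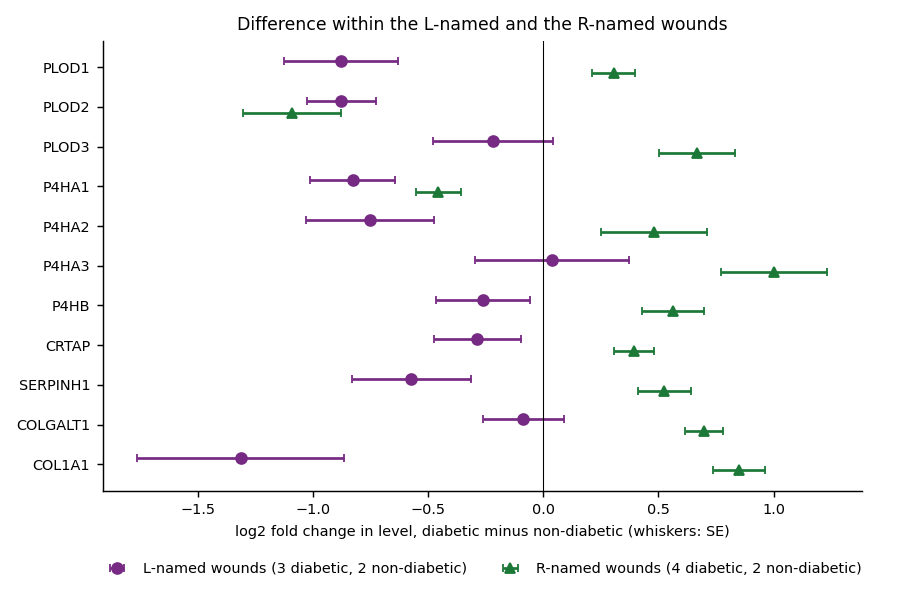
Log2 fold change in level between diabetic and non-diabetic wounds (horizontal axis; whiskers, SE) within the L-named wounds (purple circles, 3 against 2) and the R-named wounds (green triangles, 4 against 2) for the members and COL1A1. PLOD2 and P4HA1 are negative with both letters, which their full separation over all wounds fixes in advance. COL1A1 is at -1.31 with L and 0.85 with R.

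The partners of the members in the same pathway were not called. In the lists of 3-hydroxylation, export, folding, fibrillar collagen, hypoxia and cosubstrate genes, 0 genes would have been called by the unadjusted p of limma with the same fold change threshold. By an unadjusted p below 0.05 alone, the isomerase FKBP14 (-0.41), the coat proteins SEC23A (-0.37) and SEC24D (-0.30) and the hypoxia target ANKRD37 (-0.33) were lower. Of the 9 genes of 3-hydroxylation and prolyl isomerisation none passed (median log2 fold change -0.00). PPIB, the isomerase of the CRTAP complex, was at 84.4 ± 8.91 FPKM in diabetic wounds against 84.3 ± 10.5 FPKM in non-diabetic wounds (SD, n = 7 and 4), P3H1, the 3-hydroxylase itself, at 114 ± 41.9 and 107 ± 27.4 FPKM, and the procollagen isomerases FKBP10 at 265 ± 96.6 and 233 ± 54.3 FPKM and FKBP9 at 380 ± 94.4 and 375 ± 82.4 FPKM. None of the 8 tested genes of the other galactosyltransferase and procollagen export list passed, although all 8 values were negative (median -0.10) and SEC23A, a coat protein of export vesicles named after its value was seen, passed the p threshold (adjusted p = 0.0462) at a log2 fold change of -0.37, under the fold change threshold. Its most abundant genes were SEC13, another coat protein (log2 fold change -0.05), and CREB3L1, a transcription factor of secretory load (-0.10). COLGALT2, the second collagen galactosyltransferase, was under the filter, at 0.329 ± 0.136 FPKM in diabetic wounds against 0.786 ± 0.352 FPKM in non-diabetic wounds with overlap (exact permutation p = 0.0152, 1 gene, not adjusted). None of the 11 general folding genes of the endoplasmic reticulum passed (median 0.01), among them PDIA3 (449 ± 52.6 against 446 ± 37.3 FPKM) and CALR (340 ± 25.7 against 369 ± 40.5 FPKM).

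Of the 22 hypoxia targets other than the members none passed, with a median log2 fold change of -0.14 and 15 negative values. Over all genes tested the median was 0.01, with 6654 of 13956 negative. The list ranged from HK2 (-1.34, limma adjusted p = 0.341) to ALDOA (0.34, limma adjusted p = 0.473). Its most abundant genes, the glycolytic enzymes ENO1 (0.00) and GAPDH (-0.06), lay near 0. Whether hypoxia differed between the groups was not tested. None of the 8 genes that handle 2-oxoglutarate and ascorbate, the cosubstrates of the hydroxylases, passed (median -0.04), with IDH2 at -0.01 and OGDH at 0.18. Among the substrates, none of 9 tested fibrillar and associated collagens passed (median -0.13), and of 5 basement membrane collagens COL15A1, a collagen of the basement membrane zone, was lower (39.0 ± 7.08 against 65.9 ± 14.2 FPKM, log2 fold change -0.74, adjusted p = 0.0250), while COL4A1 (-0.14) and COL4A2 (0.05) were not called.

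Markers of the cell types in the wound give the composition beside these values. None of 12 fibroblast and myofibroblast genes passed (median log2 fold change -0.15). By the unadjusted p 2 would have, both lower: POSTN (-1.18, limma adjusted p = 0.0698) and FN1 (-0.59, limma adjusted p = 0.0567). Every diabetic wound was lower than every non-diabetic wound in FN1. The sum of the list ranged from 15580 to 41004 FPKM in diabetic wounds against 27472 to 49747 FPKM in non-diabetic wounds. COL1A1 and COL3A1 were the most abundant genes in this sum. None of 8 endothelial genes passed (median 0.00), with PECAM1 at 0.02 and CLDN5 at -0.01, and none of 11 keratinocyte genes passed (median 0.36), also by the unadjusted p (0 genes in either list), with KRT5 at 0.25 and KRT1 at 0.59. Of 11 leukocyte and macrophage genes 3 were higher, ITGAM (1.22, adjusted p = 0.00585), CD14 (0.76, adjusted p = 0.0390) and MRC1 (0.73, adjusted p = 0.00585), and the summed level was 453 to 677 FPKM in diabetic wounds against 298 to 488 FPKM in non-diabetic wounds. The abundant LAPTM5 (0.08) and CD68 (0.42) were not called. Of 8 plasma cell genes MZB1 (1.99) and IRF4 (1.32) were higher, with XBP1 (0.07) and SDC1 (0.05) not called, and of 7 adipocyte genes LPL (-1.24) and LEP (-1.41) were lower, with FABP4 (0.92) and ADIPOQ (-0.97) not called. The only skeletal muscle gene tested, DES, was not called (0.56, raised in D3). The part of these cell types in the PLOD2 and P4HA1 results was not tested.

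The genes whose profile over the 11 wounds lay nearest to each called member were found by the mean absolute difference of log2 values, each centred on its own mean. Nearest to PLOD2 was ANTXR1, a cell surface receptor that binds collagen, at a mean difference of 0.11 and 42.7 against 72.6 FPKM. It was followed by the uncharacterised LOC110257664, the pseudogene LOC102163367, LOC100522551, annotated as carbohydrate sulfotransferase 6, and SYCP2, a meiotic chromosome protein, at differences of 0.14 to 0.15. Nearest to P4HA1 were LOC100627067, annotated as a tumor necrosis factor receptor family member (0.05), the homeobox factor PKNOX1 (0.08), the formin FMNL3 (0.08), SEMA5B, a semaphorin (0.10), and LOC100154312, annotated as a coiled-coil protein (0.10). Several of these genes were expressed at under 2 FPKM. P4HA1 and PLOD2 differed from each other by 0.22, with P4HA1 at rank 66 of 13900 genes in likeness to PLOD2 and PLOD2 at rank 763 in likeness to P4HA1.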

How the data were processed

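RNA from 7 diabetic and 4 non-diabetic wounds was sequenced as 1 strand-marked polyA library per wound. Per the labels and the methods, the authors used fastp for trimming, HISAT2 2.2.1 for mapping to Sscrofa11.1 and featureCounts 2.0.6 for counting on genes, and deposited FPKM values. The formula behind the FPKM is not given in the sources used here. Multiplied by gene length, 100.0% of the values were whole reads to within 0.05 reads, and the divisor of each library was proportional to median-of-ratios size factors to within 0.981%, so the FPKM already carried a scaling between libraries.

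Groups were taken from the sample titles. The filter kept genes that reached an FPKM of 0.5 in 4 or more libraries. Their log2(FPKM + 0.5) was tested with limma 3.58.1 (R 4.3.3; lmFit, eBayes with trend, Benjamini-Hochberg adjustment over all genes tested), in level and after subtracting log2 COL1A1 of the same wound. A fold change on this scale understates that of low genes. For single genes, mean log2 values were also permuted exactly over all 330 choices of wounds, two-sided. Members and lists were chosen with earlier results of these data known. The genes named are all members, 3 collagen chains, P3H1, PPIB, FKBP10 and COLGALT2, the called (up to 5) and the 2 most abundant genes of each list, and the 5 genes nearest in profile to each called member. MYH1, MYH2, SEC23A, SEC24D, FKBP14, ANKRD37, HK2, ALDOA, POSTN and FN1 stand outside this rule and were named after their values were seen. The 14 lists hold 3-hydroxylation and isomerase, glycosyltransferase and export, general folding, fibrillar collagen, basement membrane collagen, hypoxia, cosubstrate, fibroblast, keratinocyte, leukocyte, endothelial, skeletal muscle, adipocyte and plasma cell genes. COL6A1, KRT14 and MB were not matched to the table by symbol. Alternatives changed the pseudocount, filter, variance trend, weights, scaling, denominator, replicate block, name letter and wounds included.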

Additional observations from a re-analysis of the deposited data

Results flagged for a closer look

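The fold change between diabetic and non-diabetic wounds differed between the R-named and the L-named libraries for 2 members, by a limma interaction over all 13956 genes. It passed for 901 of these genes. COL1A1 (2.16), COL1A2 (1.53) and COL3A1 (1.40) were among them, in the same direction. For PLOD1 the R-named value minus the L-named value was 1.18 (SE 0.26, adjusted p = 0.0418), from 61.9 against 49.9 FPKM in 4 and 2 R-named wounds and 39.7 against 73.4 FPKM in 3 and 2 L-named wounds. For COLGALT1 it was 0.784 (SE 0.18, adjusted p = 0.0427), from 65.6 against 40.2 FPKM and 46.6 against 49.3 FPKM. Dixon's test flagged no single wound in any of 40 groups of values (the 10 members in level and relative to COL1A1, in each group). It compares an extreme value with its nearest neighbour, so 2 wounds that lie together can hide each other. D1 and D2 lay together relative to COL1A1. P4HA1 per 1000 FPKM of COL1A1 was at 5.39 and 5.82 FPKM there and at 1.95 to 2.77 FPKM in D3 to D7.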

How the results depend on the processing

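In level, PLOD2 was negative under all 25 alternatives, at -1.09 to -0.88 in log2 fold change, and P4HA1 at -0.83 to -0.46. In the fits that only left out wounds, this sign was fixed in advance, since both genes were fully separated. The number of members called lower was 1 to 2 when 1 wound was left out in turn (1 without N1), 1 without D4 and N1, 1 in the R-named wounds, 0 in the L-named wounds and 0 with the replicate number as a block. The numbers do not pair the wounds, which came from different animals: deviations of same-numbered wounds correlated at -0.27, 0.22, 0.07 and -0.48. With the replicate block PLOD2 was at -0.89 (adjusted p = 0.131) and P4HA1 at -0.72 (adjusted p = 0.213), in a fit with 11 genes higher and 5 lower. The number of members called higher was 1 with library weights (406 genes higher, 416 lower) and 4 in the R-named wounds. Relative to COL1A1, the number called lower was 2 with weights, 3 in the R-named wounds and 2 with COL1A1 as a covariate, which also called 1 higher. The weighted ratio called 107 genes higher and 9826 lower, with a median log2 difference of -0.73. Scaling by total reads moved the median of all genes to 0.02 and called 181 genes higher and 177 lower.

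Members that were not called changed sign as follows, on the log2 scale. In level, P4HA2 was at 0.16 with weights, 0.10 without D4 and N1 and 0.48 in the R-named wounds, where PLOD1 was at 0.31. Quantile normalisation put CRTAP at -0.00019 and SERPINH1 at -0.10. The replicate block put P4HB at -0.049, CRTAP at -0.028 and SERPINH1 at -0.26. The L-named wounds put PLOD3 at -0.22, P4HB at -0.26, CRTAP at -0.29, SERPINH1 at -0.57 and COLGALT1 at -0.086. With 1 wound left out in turn, P4HA2 ranged from -0.20 to 0.082 and SERPINH1 from -0.051 to 0.15. Relative to COL1A1, P4HA2 then ranged from -0.061 to 0.17. Weights put PLOD3 at -0.17, P4HA2 at -0.13, P4HB at -0.22, CRTAP at -0.40, SERPINH1 at -0.25 and COLGALT1 at -0.067, and the R-named wounds put them at -0.18, -0.37, -0.29, -0.46, -0.32 and -0.15. The L-named wounds put PLOD1 at 0.44, PLOD2 at 0.44 and P4HA1 at 0.49. PLOD1 was at 0.0087 after quantile normalisation, 0.15 with the replicate block, 0.068 against COL1A2 and 0.024 against COL3A1, and P4HA2 was at -0.0039 with the covariate. The cause of these changes was not tested. The within-letter fits and interaction, the covariate, total-read scaling and voom were added after the data were seen. The 2 planned count-model fits were not run, since the deposited unit is FPKM, and limma voom on recovered reads took their place (149 genes higher, 259 lower, both members lower).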
